A study of Rattus norvegicus with 16 samples.

Results

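The 10 enzymes described here make the lipids of myelin: Sptlc2, Degs1 and Cers2 on the way to ceramide, Elovl1, Elovl7 and Scd for its fatty acids, Fa2h, Ugt8 and Gal3st1 for the finished galactolipids, and Aspa for acetate. They were chosen by gene symbol. Each was represented by the transcript cluster (the set of probes that reports 1 gene) that carries its symbol alone, and all 10 were found among the 16377 named clusters of the 36685 on Affymetrix Rat Gene 2.1 ST arrays. Rat myelinating cultures hold spinal cord cells of embryonic day 15.5 Sprague-Dawley rats grown on astrocytes, which were raised from neurospheres of postnatal day 1 rats. From day 18 in vitro (DIV) the cultures received humanFGF2 (recombinant human fibroblast growth factor 2), F2V2 (an FGF2 with a shortened N-terminus, described by the study as selective for FGFR1) or wtFGF2, or were left untreated (Control), and RNA was collected 24 h later, at 19 DIV. The labels give no dose. The study's legend for the arrays states 1 dose shared by FGF2 and F2V2, and for wtFGF2 neither a dose nor its difference from humanFGF2 is given in the sources used here. Each group had 4 arrays. The labels speak of independent cultures and a legend of the study of technical replicates, so every p-value below reflects only how much these arrays vary, which may be technical.

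Myelin is a membrane unusually rich in galactolipids. Serine palmitoyltransferase, of which Sptlc2 encodes a subunit, joins serine to palmitoyl-CoA, ceramide synthases add a fatty acid, and Degs1 sets the double bond that turns dihydroceramide into ceramide. Cers2 prefers the very long acyl chains typical of myelin, which the elongases Elovl1 and Elovl7 help to make, while Scd, a stearoyl-CoA desaturase, makes monounsaturated fatty acids. Fa2h hydroxylates the acyl chain, Ugt8 attaches galactose to ceramide to give galactosylceramide, and Gal3st1 adds sulfate to give sulfatide. Aspa, aspartoacylase, is an oligodendrocyte enzyme that splits the neuronal metabolite N-acetylaspartate and so releases acetate for lipid synthesis. Its loss in humans causes Canavan disease, and loss of FA2H causes a leukodystrophy.

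After 24 h of humanFGF2, 5 of the 10 enzymes were called changed, in both directions. Fa2h, which hydroxylates acyl chains, Ugt8, which attaches galactose to ceramide, and Aspa, which supplies acetate, were down-regulated 2.05-fold, 1.93-fold and 2.58-fold against Control. Cers2 and Elovl1, which set the length of the acyl chain, were up-regulated 1.66-fold and 1.57-fold. Sptlc2, Degs1, Elovl7, Scd and Gal3st1 did not pass the test. Here a gene was called changed at a Benjamini-Hochberg adjusted p under 0.05 in limma, taken over all named clusters, and at least 1.4-fold. By that rule 3 of the 10 enzymes were lower and 2 higher under humanFGF2, where 8.73% of all tested clusters were called lower and 10.4% called higher. F2V2 gave 1 lower enzyme (Aspa) and 1 higher (Cers2), with 3.64% of clusters lower and 5.76% higher. wtFGF2 gave 3 lower (Fa2h, Ugt8 and Aspa) and 1 higher (Cers2), with 6.1% of clusters lower and 6.99% higher. The median difference over the 10 enzymes was 0.02, 0.03 and 0.00 on the log2 scale under humanFGF2, F2V2 and wtFGF2, against 0.02, 0.01 and 0.03 over all tested clusters. The 3 comparisons share the 4 Control arrays and are not independent of each other. The plot of log2 values by array shows each enzyme in each group.

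**Figure D1:**
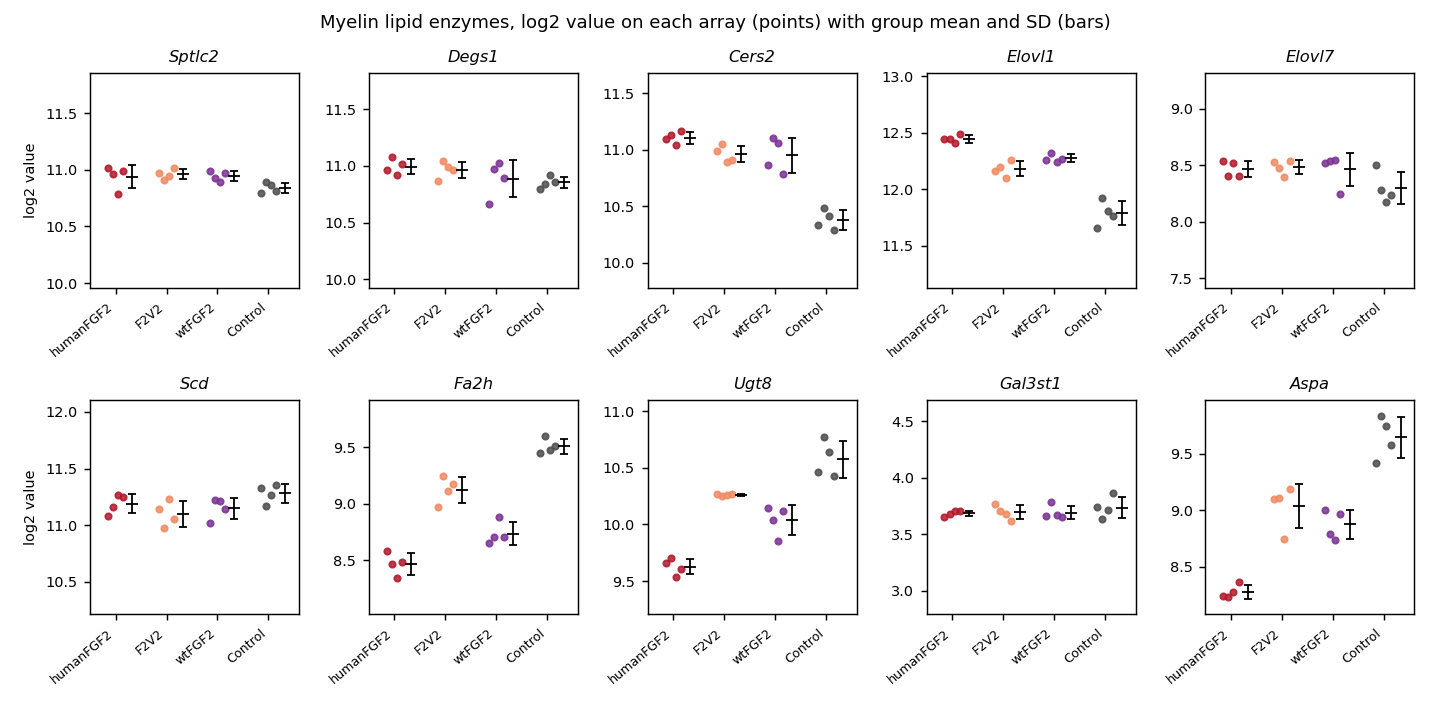
Log2 value of each of the 10 enzymes on each of the 16 arrays (points), by group from humanFGF2 to Control, with the mean and SD of the 4 arrays (bars). All panels span the same log2 range, so heights can be compared within a gene and not between genes. Fa2h, Ugt8 and Aspa lay lower and Cers2 and Elovl1 higher on every treated array than on any Control array. Separation from Control also occurred without a call, as for Sptlc2 under F2V2. The share of all tested clusters that separate in this way is not given here.

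The genomic regions just before these genes were read from the RefSeq annotation of the rat assembly GRCr8, which holds a window of 250 bases before to 50 after the annotated start site for all 10 enzymes. They are shown for the 5 enzymes that were called, because the 3 that were down-regulated and the 2 that were up-regulated can then be set side by side. Each is written 5′ to 3′ on the strand of the gene. Capitals mark the motifs searched on both strands: the GC box GGGCGG, the CCAAT box, the Sox-type ACAATG, the Sox or TCF-type ACAAAG, the E-box CAGCTG and the AP-1 motif TGANTCA. No capitals of different motifs overlap. The windows are Fa2h at chr19:56273431-56273730 (minus strand), Ugt8 at chr2:217007118-217007417 (minus), Aspa at chr10:58438988-58439287 (minus), Cers2 at chr2:185579261-185579560 (plus) and Elovl1 at chr5:137247905-137248204 (plus).
Fa2h: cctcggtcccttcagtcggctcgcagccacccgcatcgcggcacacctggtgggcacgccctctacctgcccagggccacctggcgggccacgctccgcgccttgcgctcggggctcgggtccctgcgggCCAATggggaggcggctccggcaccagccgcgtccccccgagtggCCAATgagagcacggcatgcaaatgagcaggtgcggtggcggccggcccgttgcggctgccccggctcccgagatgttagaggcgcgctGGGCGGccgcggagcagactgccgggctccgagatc
Ugt8: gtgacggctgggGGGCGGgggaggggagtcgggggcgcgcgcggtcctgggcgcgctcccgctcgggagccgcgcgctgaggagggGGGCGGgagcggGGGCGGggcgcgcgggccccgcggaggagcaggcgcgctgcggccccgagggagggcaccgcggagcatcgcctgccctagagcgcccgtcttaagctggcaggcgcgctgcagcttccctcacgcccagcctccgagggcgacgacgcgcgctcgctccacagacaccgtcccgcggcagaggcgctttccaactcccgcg
Aspa: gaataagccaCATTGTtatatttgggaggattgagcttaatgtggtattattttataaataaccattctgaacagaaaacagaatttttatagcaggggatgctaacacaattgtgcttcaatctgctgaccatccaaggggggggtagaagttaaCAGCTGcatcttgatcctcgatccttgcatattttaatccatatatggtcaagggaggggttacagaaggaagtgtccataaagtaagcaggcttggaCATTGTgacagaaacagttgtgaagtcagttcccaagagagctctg
Cers2: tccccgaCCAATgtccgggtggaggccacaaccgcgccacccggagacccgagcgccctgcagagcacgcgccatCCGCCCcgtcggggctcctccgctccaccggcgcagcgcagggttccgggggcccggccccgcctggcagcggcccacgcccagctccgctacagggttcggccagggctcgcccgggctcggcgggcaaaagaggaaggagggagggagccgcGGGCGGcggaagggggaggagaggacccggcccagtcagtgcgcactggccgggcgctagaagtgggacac
Elovl1: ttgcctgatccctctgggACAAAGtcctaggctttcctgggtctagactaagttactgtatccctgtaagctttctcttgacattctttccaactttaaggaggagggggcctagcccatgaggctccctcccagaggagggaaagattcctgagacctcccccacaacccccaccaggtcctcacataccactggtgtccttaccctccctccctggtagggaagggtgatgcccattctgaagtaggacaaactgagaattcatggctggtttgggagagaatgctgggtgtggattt

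The 3 down-regulated genes had unlike windows. Those of Fa2h and Ugt8 were rich in G and C, 74.3% and 79.3%, with 35 and 47 CpG dinucleotides, against a median of 51.7% and 7 over 33469 rat promoters. The Aspa window had 40.3% and 1 CpG. Fa2h held 1 GC box and 2 CCAAT boxes, Ugt8 held 3 GC boxes, and Aspa held 2 Sox-type motifs and 1 E-box. Of the up-regulated genes, Cers2 had 76.0% G and C with 35 CpG, 2 GC boxes and 1 CCAAT box, and Elovl1 had 52.7% with 0 CpG and 1 Sox or TCF-type motif. Over all promoters the GC box occurred in 33.1%, the CCAAT box in 37.5%, the Sox-type motif in 13.2%, the Sox or TCF-type motif in 18.8%, the E-box in 15.1% and the AP-1 motif in 7.33%. No motif was shared by the windows of all 3 down-regulated genes or by both up-regulated ones. A match is a string of letters and no measurement of binding.

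**Figure D2:**
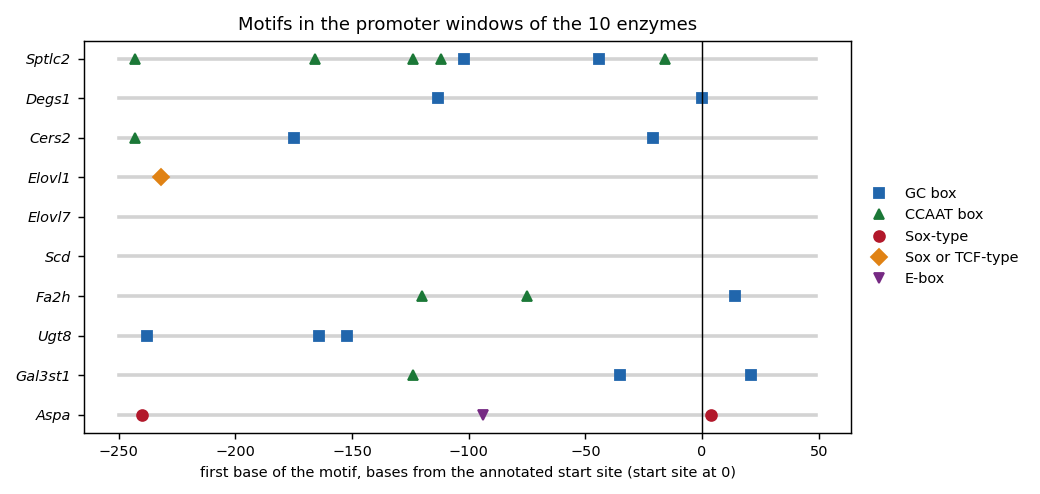
Position of each motif match (symbols) in the promoter windows of the 10 enzymes (grey lines), as bases from the annotated start site, which is at 0. The Fa2h and Ugt8 windows hold only GC and CCAAT boxes, the Aspa window holds neither, and those of Elovl7 and Scd hold no match.

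Fa2h carries out the step that makes myelin galactolipids hydroxylated. Its log2 values were 8.58, 8.47, 8.34 and 8.48 on the humanFGF2 arrays, 8.97, 9.24, 9.11 and 9.17 on the F2V2 arrays, 8.65, 8.70, 8.88 and 8.70 on the wtFGF2 arrays, and 9.45, 9.60, 9.47 and 9.51 on the Control arrays. No pair of groups overlapped: humanFGF2 was lowest, then wtFGF2, then F2V2, with Control on top. Against Control the log2 difference was -1.04 ± 0.07 (SE) under humanFGF2 (adjusted p = 2.21e-09), -0.38 ± 0.07 under F2V2 (adjusted p = 0.000336) and -0.77 ± 0.07 under wtFGF2 (adjusted p = 1.55e-07). The F2V2 difference, 1.31-fold, stayed below the fold threshold. Set directly against F2V2, humanFGF2 was 1.57-fold lower (log2 difference -0.65, adjusted p = 3.48e-06). The steps between wtFGF2 and its neighbours in that order were smaller, -0.39 against F2V2 (adjusted p = 0.00344) and 0.27 against humanFGF2 (adjusted p = 0.0229), and neither reached 1.4-fold.

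Ugt8, the galactosyltransferase that commits ceramide to galactosylceramide, had log2 values of 9.66, 9.70, 9.54 and 9.61 on the humanFGF2 arrays, 10.27, 10.25, 10.26 and 10.27 on the F2V2 arrays, 10.15, 10.04, 9.85 and 10.12 on the wtFGF2 arrays, and 10.46, 10.77, 10.64 and 10.43 on the Control arrays. The order of the groups was that of Fa2h, again without overlap. The log2 difference from Control was -0.95 ± 0.08 under humanFGF2 (adjusted p = 2.18e-08), -0.31 ± 0.08 under F2V2 (adjusted p = 0.00393, 1.24-fold and so not called) and -0.53 ± 0.08 under wtFGF2 (adjusted p = 2.63e-05). humanFGF2 was 1.56-fold lower than F2V2 (log2 difference -0.64, adjusted p = 1.25e-05). wtFGF2 and F2V2, neighbours in the order, did not differ by the test (-0.22, 95% interval -0.38 to -0.06, adjusted p = 0.136), and wtFGF2 stood 0.42 above humanFGF2 (adjusted p = 0.00218, 1.34-fold). The wtFGF2 call lay close to the 1.4-fold limit: it was lost without Control replicate 2 or without wtFGF2 replicate 3, each of which gave a difference of -0.47.

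Gal3st1, the sulfotransferase that follows Ugt8, gave no usable reading. Its log2 values lay between 3.62 and 3.86 on all 16 arrays, under the level of 5 below which a cluster was treated as dim, so a lower level could not have been seen. The enzyme needs activated sulfate, which both Papss1 and Papss2 make, and Papss2 moved further than any of the 10. Papss2 had log2 values of 6.75, 6.55, 6.6 and 6.82 on the humanFGF2 arrays, 7.66, 7.42, 7.82 and 7.60 on the F2V2 arrays, 6.90, 7.16, 7.25 and 7.31 on the wtFGF2 arrays, and 9.78, 9.72, 9.66 and 9.78 on the Control arrays. All treated arrays were far below Control, and humanFGF2 was below the other two ligands without overlap. The differences from Control were -3.06 (adjusted p = 2.21e-13), -2.11 (adjusted p = 6.56e-11) and -2.58 (adjusted p = 3.61e-12) for humanFGF2, F2V2 and wtFGF2.

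Aspa, whose promoter window was the one poor in CpG among the 3 down-regulated genes, showed the largest difference of the 10 enzymes under humanFGF2 and F2V2, and the same one as Fa2h to 2 decimals under wtFGF2. Its log2 values were 8.24, 8.23, 8.28 and 8.37 on the humanFGF2 arrays, 9.10, 9.11, 8.75 and 9.19 on the F2V2 arrays, 9.0, 8.79, 8.74 and 8.97 on the wtFGF2 arrays, and 9.42, 9.83, 9.75 and 9.58 on the Control arrays. The humanFGF2 arrays were lowest with no overlap, the F2V2 and wtFGF2 arrays overlapped each other, and Control was above all of them. The difference from Control was -1.36 ± 0.10 under humanFGF2 (adjusted p = 7.1e-09), -0.61 ± 0.10 under F2V2 (adjusted p = 0.000155) and -0.77 ± 0.10 under wtFGF2 (adjusted p = 9.46e-06). humanFGF2 was 1.69-fold lower than F2V2 (log2 difference -0.76, adjusted p = 3.5e-05), and wtFGF2 was 1.51-fold higher than humanFGF2 (0.59, adjusted p = 0.00113). Between wtFGF2 and F2V2 the difference was -0.16 (95% interval -0.38 to 0.05, adjusted p = 0.436).

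Cers2 moved the other way. This ceramide synthase had log2 values of 11.09, 11.13, 11.04 and 11.16 on the humanFGF2 arrays, 10.99, 11.05, 10.89 and 10.91 on the F2V2 arrays, 10.86, 11.10, 11.06 and 10.78 on the wtFGF2 arrays, and 10.33, 10.48, 10.41 and 10.29 on the Control arrays. Every treated array was above every Control array, and the 3 treated groups overlapped one another. Against Control the difference was 0.73 ± 0.07 under humanFGF2 (adjusted p = 1.85e-07), 0.58 ± 0.07 under F2V2 (adjusted p = 6.78e-06) and 0.57 ± 0.07 under wtFGF2 (adjusted p = 4.95e-06). No pair of ligands differed by the test. humanFGF2 minus F2V2 was 0.15 (95% interval 0.00 to 0.30, adjusted p = 0.156), wtFGF2 minus F2V2 was -0.01 (95% interval -0.16 to 0.14, adjusted p = 0.973), and wtFGF2 minus humanFGF2 was -0.16 (95% interval -0.30 to -0.01, adjusted p = 0.221).

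Elovl1, the elongase of saturated very long chains, had log2 values of 12.44, 12.44, 12.41 and 12.49 on the humanFGF2 arrays, 12.16, 12.20, 12.10 and 12.26 on the F2V2 arrays, 12.26, 12.32, 12.24 and 12.27 on the wtFGF2 arrays, and 11.66, 11.92, 11.81 and 11.76 on the Control arrays. humanFGF2 was highest without overlap, F2V2 and wtFGF2 overlapped, and Control was lowest. The difference from Control was 0.65 ± 0.05 under humanFGF2 (adjusted p = 3.34e-08), 0.39 ± 0.05 under F2V2 (adjusted p = 3.23e-05, 1.31-fold) and 0.48 ± 0.05 under wtFGF2 (adjusted p = 2.02e-06), of which only the first was called. The wtFGF2 value lay just under the 1.4-fold limit. It passed the limit without Control replicate 2 (0.53), Control replicate 3 (0.49), wtFGF2 replicate 1 (0.49) or wtFGF2 replicate 3 (0.50), and with each array's median subtracted (0.52). humanFGF2 was 1.2-fold above F2V2 (0.26, adjusted p = 0.00184), under the fold threshold, while wtFGF2 differed from humanFGF2 by -0.17 (adjusted p = 0.0668) and from F2V2 by 0.09 (adjusted p = 0.403).

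The remaining enzymes stayed within 0.19 of Control in either direction. Sptlc2, at the entry to the pathway, spanned 10.79 to 11.02 over the 16 arrays, and its differences from Control were 0.10, 0.12 and 0.10 for humanFGF2, F2V2 and wtFGF2. Degs1 spanned 10.66 to 11.08, with differences of 0.14, 0.11 and 0.04. None of these 6 values passed an adjusted p of 0.05, and all of their 95% intervals ended at 0.29 or lower. Even so, the arrays did not overlap Control for Sptlc2 under F2V2 (adjusted p = 0.0941) and for Degs1 under humanFGF2 (adjusted p = 0.105). Lack of overlap was therefore not confined to the called enzymes. Elovl7, an elongase of long acyl chains, spanned 8.18 to 8.55 and differed from Control by 0.17, 0.19 and 0.17 (adjusted p = 0.0787, 0.0718 and 0.101). Scd spanned 10.97 to 11.35, with differences of -0.09, -0.18 and -0.14. The F2V2 value for Scd passed on p alone (adjusted p = 0.0446, and 0.0157 to 0.149 over the alternative settings and left-out arrays) at 1.14-fold.

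Without the fold threshold, 5 enzymes differed from Control under humanFGF2, 6 under F2V2 (the same 5 and Scd) and 5 under wtFGF2. These counts stand beside 46.3%, 34.0% and 39.6% of all tested clusters that pass on adjusted p alone under humanFGF2, F2V2 and wtFGF2. Directly between ligands, humanFGF2 was called lower than F2V2 for Fa2h, Ugt8 and Aspa, 3 of 10 enzymes, where 2.92% of all clusters were lower, and higher for 0 of 10, where 2.88% were higher. Elovl1 alone passed in the upward direction on adjusted p, and also at an unadjusted p under 0.05. Between wtFGF2 and F2V2, 0 of 10 enzymes were called by limma, and 0 by plain ANOVA contrasts, against 1.4% of clusters in either direction. Fa2h passed on adjusted p alone, and 2 enzymes, Fa2h and Ugt8, at an unadjusted p under 0.05. Between wtFGF2 and humanFGF2, Aspa was called, 1 of 10 against 1.93% of clusters, and Fa2h and Ugt8 passed on adjusted p alone. The Fa2h pass did not hold under every setting (adjusted p 0.0153 to 0.0786 over the alternative settings and left-out arrays), while that of Ugt8 did (0.000517 to 0.0104).

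**Figure D3:**
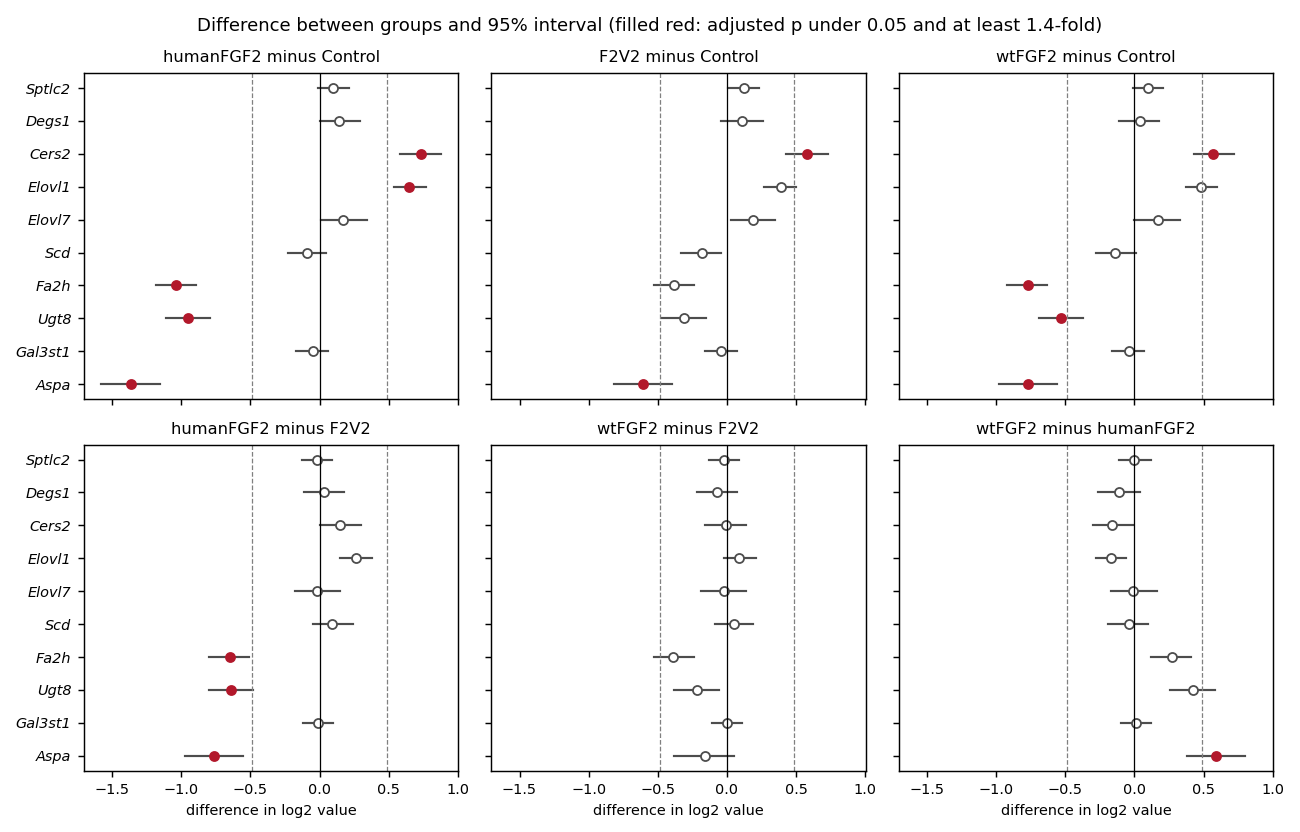
Difference in log2 value (points) with its 95% interval (lines) for the 10 enzymes in the 6 comparisons, ordered by role from Sptlc2 to Aspa; dashed lines mark 1.4-fold and filled red points are called. Fa2h, Ugt8 and Aspa lie left of 0 under every ligand and furthest left under humanFGF2, from -1.36 to -0.95, while Cers2 and Elovl1 lie right of 0.

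The gene closest in pattern to each enzyme was sought among 15548 genes by Pearson correlation over the 16 arrays, given as a description only since the arrays of a group share their treatment. The closest to Fa2h were Mgst1 (r = 0.980), Dbndd2 (r = 0.977) and Elovl2 (r = 0.975). Those closest to Ugt8 included Mtmr10 (r = 0.976) and Tspan11 (r = 0.969), and those closest to Aspa were Nckap5 (r = 0.969), Mtmr10 (r = 0.967) and Omg (r = 0.965). Elovl2 is a further elongase and Omg the oligodendrocyte myelin glycoprotein. For Cers2 they were Spon2 (r = 0.986), Crtap (r = 0.981) and Dph3 (r = 0.981), and for Elovl1 they were Cdk2ap1 (r = 0.983), Nop2 (r = 0.983) and Pdlim1 (r = 0.980). Spon2 and Crtap belong to the extracellular matrix and collagen synthesis. The best partners of the enzymes that were not called reached 0.895 for Sptlc2 (Cd2ap), 0.832 for Degs1 (Scand1), 0.849 for Elovl7 (Ogfod3), 0.867 for Scd (Spire2) and 0.820 for Gal3st1 (Hivep3).

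Around N-acetylaspartate, the substrate of Aspa, 5 of 5 listed genes were measured, and 2 were called lower and 1 higher under humanFGF2, 2 lower under F2V2 and 2 lower under wtFGF2. The list's median difference was -0.38, -0.34 and -0.43 for humanFGF2, F2V2 and wtFGF2. For this and the later lists, the shares of all tested clusters called lower were 8.73%, 3.64% and 6.1% under humanFGF2, F2V2 and wtFGF2. Those called higher were 10.4%, 5.76% and 6.99%. Folh1, the peptidase that frees N-acetylaspartate from its dipeptide, had log2 values of 8.57, 8.73, 8.76 and 8.66 under humanFGF2, 9.43, 9.27, 9.32 and 9.28 under F2V2, 9.10, 9.21, 9.03 and 9.19 under wtFGF2, and 10.11, 9.94, 9.99 and 10.23 in Control. The 4 groups did not overlap, in the order seen for Fa2h, and the differences from Control were -1.39 (adjusted p = 5.64e-11), -0.74 (adjusted p = 3.7e-07) and -0.93 (adjusted p = 1.68e-08). Slc13a3, a dicarboxylate carrier that takes up N-acetylaspartate, fell by about the same amount under each ligand, with differences of -1.02, -1.02 and -1.01 from Control. humanFGF2 minus F2V2 was 0.01 for it (adjusted p = 0.977). Nat8l, the synthase of N-acetylaspartate, differed by -0.38, -0.34 and -0.43 and was not called. Slc25a13, a mitochondrial aspartate carrier, rose under humanFGF2 (0.62, adjusted p = 1.75e-05), with 0.13 under F2V2 and 0.30 under wtFGF2. Its group mean was 7.27 under humanFGF2 and 6.66 in Control. The brighter paralog Slc25a12 did not rise. Its group means were 11.94, 12.04 and 12.05 under humanFGF2, F2V2 and wtFGF2 and 12.1 in Control. Slc25a12 was not called, and was lower under humanFGF2 on adjusted p alone.

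Acetate from Aspa must be joined to coenzyme A before use. Acss1, the mitochondrial acetyl-CoA synthetase, had log2 values of 8.21, 8.08, 8.14 and 8.18 under humanFGF2, 9.38, 9.43, 9.74 and 9.12 under F2V2, 9.61, 9.55, 9.34 and 9.33 under wtFGF2, and 9.63, 9.69, 9.70 and 9.46 in Control. humanFGF2 was far below the rest, while the other 3 groups overlapped. It differed from Control by -1.47 under humanFGF2 (adjusted p = 4.24e-09), -0.20 under F2V2 (adjusted p = 0.149) and -0.16 under wtFGF2 (adjusted p = 0.238). The difference between ligands was tested directly, at -1.27 for humanFGF2 minus F2V2 (adjusted p = 2.04e-07) and 1.31 for wtFGF2 minus humanFGF2 (adjusted p = 1.1e-06). Acss2, which activates acetate in the cytosol and nucleus, differed from Control by -0.49 (called), -0.42 and -0.48.

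**Figure D4:**
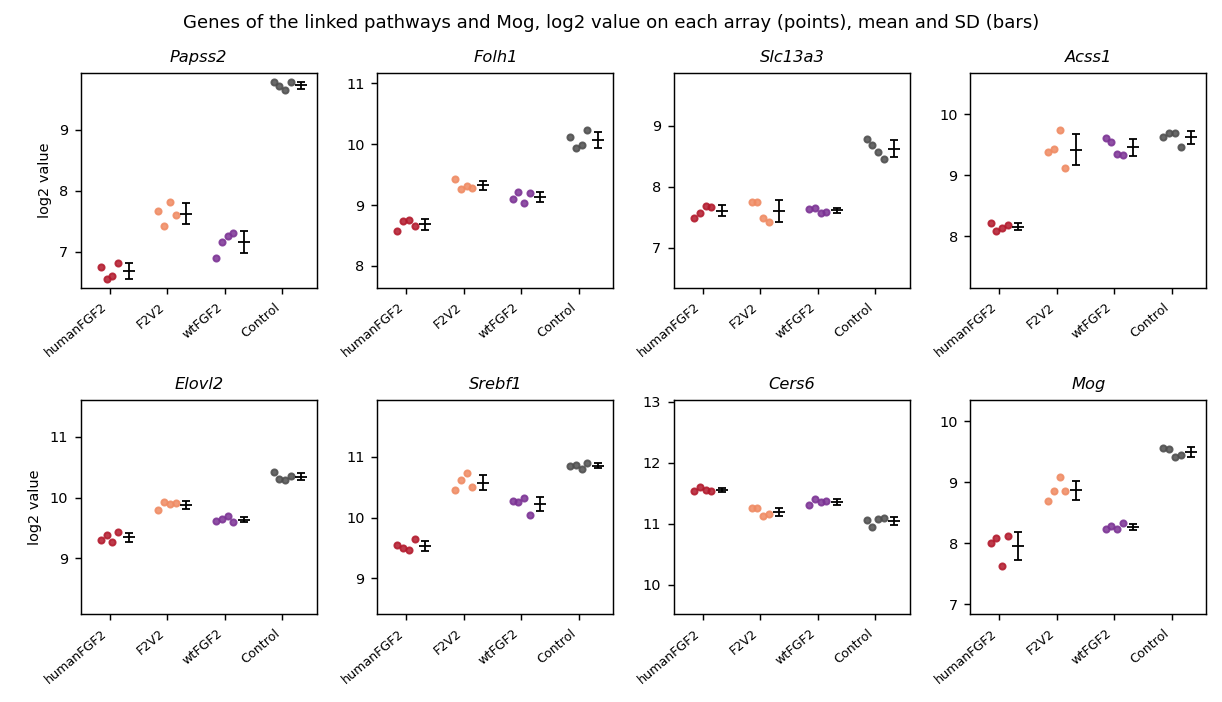
Log2 value on each array (points) of 7 genes of the linked pathways and of the oligodendrocyte marker Mog, by group from humanFGF2 to Control, with mean and SD of the 4 arrays (bars). Panels span the same log2 range. Acss1 is low on the humanFGF2 arrays only, Slc13a3 is low to the same degree under every ligand, and Papss2 has the widest gap, with -3.06 under humanFGF2.

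Among the other genes of fatty acid synthesis, elongation and desaturation, 18 of 26 were measured. Acss1, Acss2 and Elovl2 were called lower and none higher under humanFGF2, none was called under F2V2, and Elovl2 was lower under wtFGF2. Under F2V2, 8 of the 18 differed from Control by adjusted p alone in limma and 9 at an unadjusted p under 0.05. Of all tested clusters, 34.0% passed on adjusted p alone under F2V2. Elovl2, an elongase of polyunsaturated fatty acids, had log2 values of 9.31, 9.39, 9.27 and 9.43 under humanFGF2, 9.79, 9.93, 9.90 and 9.91 under F2V2, 9.61, 9.65, 9.69 and 9.59 under wtFGF2, and 10.42, 10.31, 10.29 and 10.35 in Control. No groups overlapped, and its difference of -0.46 under F2V2 was just short of the fold threshold. Scd2, the desaturase paralog of Scd that is prominent in brain, had differences of -0.12, -0.05 and -0.10 for humanFGF2, F2V2 and wtFGF2, and Fads2, a desaturase of polyunsaturated chains, had -0.33, -0.27 and -0.30. The median over the list was -0.03, -0.14 and -0.05, against 0.02, 0.01 and 0.03 over all tested clusters.

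Of the other genes of ceramide and sphingolipid synthesis 15 of 19 were measured, and 1 was called under each ligand. By adjusted p alone 3 were higher and 3 lower under humanFGF2, 3 higher and 1 lower under F2V2, and 3 higher and 4 lower under wtFGF2. The members thus went both ways around medians of -0.04, -0.02 and 0.00. Of all tested clusters, 46.3%, 34.0% and 39.6% passed on adjusted p alone under humanFGF2, F2V2 and wtFGF2. Cers6, a ceramide synthase that prefers shorter chains than Cers2, was called higher under humanFGF2. Its log2 values were 11.54, 11.60, 11.55 and 11.54 under humanFGF2, 11.26, 11.25, 11.12 and 11.16 under F2V2, 11.30, 11.41, 11.35 and 11.37 under wtFGF2, and 11.06, 10.95, 11.08 and 11.09 in Control. Every humanFGF2 array exceeded all others, and the difference from Control was 0.52 (adjusted p = 1.29e-07), with 0.15 under F2V2 and 0.31 under wtFGF2. Cers4 had differences of -0.44, -0.13 and -0.32, and Ormdl3, an inhibitor of serine palmitoyltransferase, had -0.37, -0.09 and -0.31, all short of the fold threshold. The other calls were Sptssb, a small subunit of serine palmitoyltransferase, lower under F2V2 (-0.51), and Sgms2, a sphingomyelin synthase, higher under wtFGF2 (0.53), where humanFGF2 gave -0.21 for Sptssb and 0.43 for Sgms2.

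Of the genes that break down sphingolipids, 16 of 19 were measured and 1, the neutral ceramidase Asah2, was called under humanFGF2 (-0.68) and under wtFGF2 (-0.55). F2V2 gave 0 calls by limma, while 3 genes passed on adjusted p alone and 5 at an unadjusted p under 0.05. The share of all tested clusters passing on adjusted p alone under F2V2 was 34.0%. Arsa, which removes the sulfate of sulfatide, differed by -0.26, -0.26 and -0.36 under humanFGF2, F2V2 and wtFGF2, Hexa by -0.25, 0.06 and -0.06, and Sphk2 by 0.44, 0.24 and 0.36. The lowest p between humanFGF2 and F2V2 belonged to Hexa (-0.31) and the sphingomyelinase Smpd3 (-0.28), under the fold threshold. Of the genes of ether lipids, another myelin lipid class, and of peroxisomal very long chain fatty acids, 10 of 14 were measured. Here 3 were called lower under humanFGF2: the peroxisomal transporters Abcd2 (-0.90) and Abcd3 (-0.53), and Pex7 (-0.53), the receptor that brings some enzymes into peroxisomes. Abcd2 was also lower under F2V2 (-0.53) and wtFGF2 (-0.71), the sole calls there. Gnpat, which starts ether lipid synthesis, differed by 0.24, 0.12 and 0.22. Between humanFGF2 and F2V2 the lowest p belonged to Hsd17b4 (-0.29), an enzyme of peroxisomal oxidation, and Abcd3 (-0.23), neither called.

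In the list of sulfate and galactose supply, 6 of 7 genes were measured and Papss2 was the sole call under each ligand. Its paralog Papss1 differed by 0.30, 0.21 and 0.33 under humanFGF2, F2V2 and wtFGF2, the sulfate donor carrier Slc35b2 by 0.30, 0.15 and 0.19, and the UDP-galactose carrier Slc35a2 by 0.44, 0.29 and 0.23, none called. Gltp, a glycolipid transfer protein, differed by -0.16, 0.10 and -0.03. Papss2 also separated the ligands, with humanFGF2 minus F2V2 at -0.95 (adjusted p = 1.7e-06).

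Among regulators of lipogenic and myelin genes, 13 of 16 were measured, with 3 called lower under humanFGF2, none called under F2V2, and 1 lower and 1 higher under wtFGF2. Under F2V2, 7 of the 13 differed from Control by adjusted p alone in limma, and 7 at an unadjusted p under 0.05. The share of all tested clusters passing on adjusted p alone there was 34.0%. Srebf1, which encodes the sterol regulatory element binding factor that drives fatty acid synthesis genes, had log2 values of 9.55, 9.5, 9.46 and 9.65 under humanFGF2, 10.45, 10.61, 10.74 and 10.50 under F2V2, 10.27, 10.26, 10.32 and 10.05 under wtFGF2, and 10.84, 10.87, 10.80 and 10.89 in Control. The 4 groups did not overlap. The difference from Control was -1.31 under humanFGF2 (adjusted p = 1.5e-10), -0.28 under F2V2 (adjusted p = 0.00504, not called) and -0.63 under wtFGF2 (called), and humanFGF2 minus F2V2 was -1.03 (adjusted p = 2.61e-08). Zfp488, a zinc finger factor of oligodendrocytes, differed from Control by -1.02 under humanFGF2, -0.36 under F2V2 and -0.42 under wtFGF2, and the liver X receptor gene Nr1h3 by -0.61, -0.24 and -0.32. Its paralog Nr1h2 went the other way, by 0.46, 0.36 and 0.37, with no call. The higher call under wtFGF2 was the zinc finger gene Zfp191, also called Zfp24 (0.58), which differed by 0.05 under humanFGF2 and by 0.47 under F2V2, just under the 1.4-fold limit.

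**Figure D5:**
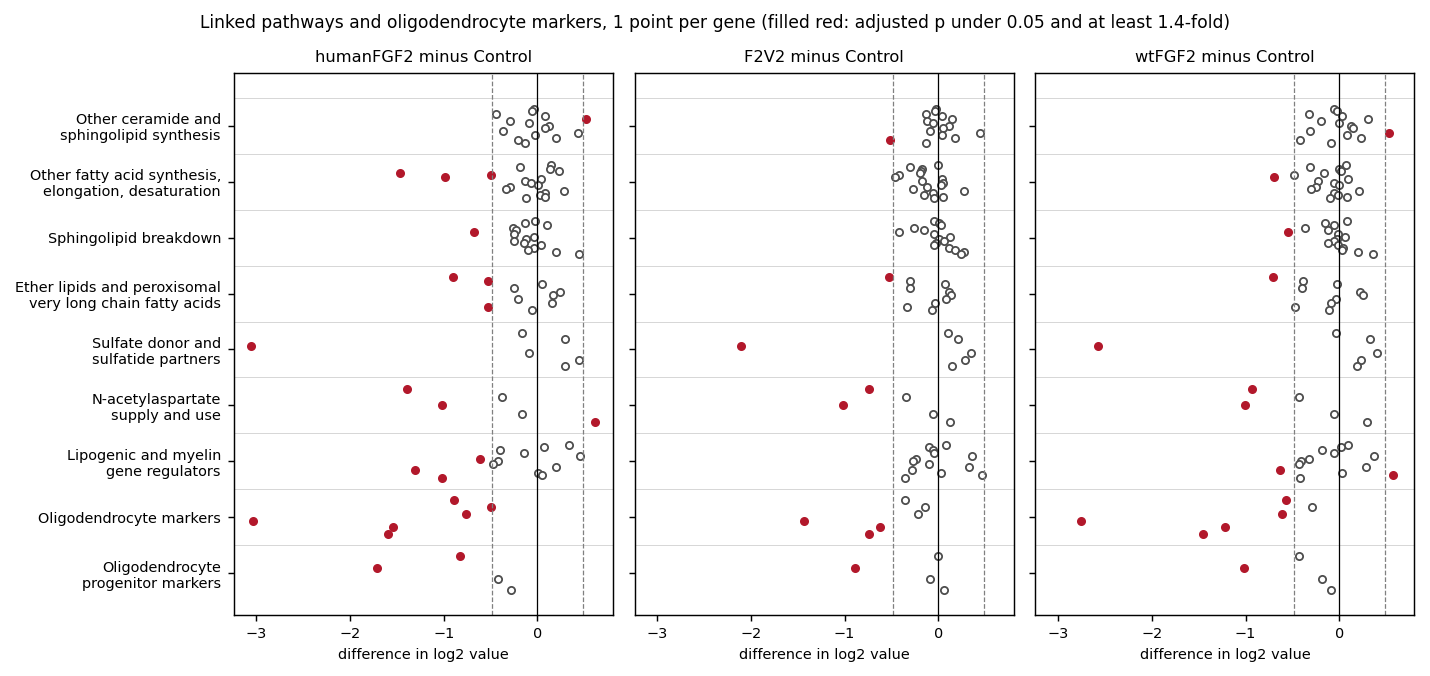
Difference in log2 value from Control for each measured gene (points) of the 7 pathway lists and of 2 oligodendrocyte marker lists, under humanFGF2, F2V2 and wtFGF2; dashed lines mark 1.4-fold and filled red points are called. Most genes of ceramide synthesis and breakdown lie between the dashed lines, while all 6 oligodendrocyte markers are called lower under humanFGF2.

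Because the arrays measure RNA of all cells together, fewer cells of a type and less RNA per cell cannot be told apart. Of 10 listed oligodendrocyte markers 6 were measured, and 6 were called lower under humanFGF2, 3 under F2V2 and 5 under wtFGF2. Their mean log2 value per array was 8.81 to 8.95 under humanFGF2, 9.61 to 9.76 under F2V2, 9.09 to 9.17 under wtFGF2 and 10.21 to 10.37 in Control. The group means of Fa2h, Ugt8 and Aspa had the same order, though only Fa2h differed between wtFGF2 and F2V2 by adjusted p. Mog, a surface protein of mature myelin, differed from Control by -1.54, -0.62 and -1.22 under humanFGF2, F2V2 and wtFGF2, Mag by -0.76, -0.22 and -0.61, Cldn11 by -0.89, -0.35 and -0.57, and Cnp by -0.49, -0.14 and -0.29. All 6 had group means above a log2 value of 5. The part of these markers in the enzyme results was not tested.

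Markers of the earlier lineage did not follow 1 direction. Of 4 listed genes of the whole lineage 3 were measured, and 2 of them, Olig1 and Olig2, had higher group means under every ligand than in Control. Olig2 was 0.45 above Control under humanFGF2, 0.73 under F2V2 and 0.62 under wtFGF2, the last 2 called. Olig1 had group means of 11.36, 11.79 and 11.76 under humanFGF2, F2V2 and wtFGF2 and 11.19 in Control, called under F2V2 and wtFGF2. Sox10 differed by -0.55 (called), -0.31 and -0.23. Of 5 listed progenitor genes 4 were measured, with 2 called lower under humanFGF2 and 1 under each of F2V2 and wtFGF2. Gpr17, a receptor of cells between progenitor and oligodendrocyte, was called lower under all 3 ligands, with differences of -1.71 under humanFGF2, -0.89 under F2V2 and -1.02 under wtFGF2. Cspg4 and Pdgfra differed by -0.83 (called) and -0.42 under humanFGF2, 0.00 and -0.09 under F2V2, and -0.43 and -0.18 under wtFGF2, and Ptprz1 by -0.28, 0.06 and -0.09. Schwann cells also use Ugt8 and Fa2h for their myelin, so their genes were read too. The mean over 5 Schwann cell markers was 8.15 to 8.29 under humanFGF2, 7.81 to 8.07 under F2V2, 7.93 to 8.17 under wtFGF2 and 7.29 to 7.84 in Control. Prx among them was dim, with group means of 4.76 to 4.96. The group means of these markers were opposite in order to those of the 3 lower enzymes. That order came from Gldn, which differed by 3.17, 2.17 and 2.94 from Control, while the median over the 5 markers was -0.19, 0.19 and 0.01. Astrocyte markers, 3 of 7 measured, averaged 12.13 to 12.19 under humanFGF2, 12.48 to 12.55 under F2V2, 12.33 to 12.37 under wtFGF2 and 12.72 to 12.77 in Control. These ranges did not overlap and had the order of the group means of the 3 lower enzymes, over a smaller span than that of the oligodendrocyte markers. Of 7 neuron markers 5 were measured and 0 were called by limma, while 4 were lower under each ligand on adjusted p alone and at an unadjusted p under 0.05. Their median differences were -0.33, -0.21 and -0.25 under humanFGF2, F2V2 and wtFGF2. Of all tested clusters, 46.3%, 34.0% and 39.6% passed on adjusted p alone, in either direction. The mean of the neuron markers was 11.30 to 11.38 under humanFGF2, 11.32 to 11.45 under F2V2, 11.27 to 11.45 under wtFGF2 and 11.59 to 11.66 in Control. The part of these markers in the enzyme results was likewise not tested.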

How the data were processed

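RNA was measured on 16 Affymetrix arrays, 4 per group. The authors made the deposited log2 values in Partek Genomics Suite 6.6, where GCRMA was followed by Tukey's biweight to summarize probe sets, and differences between dim signals can be understated. The number of arrays limits the precision: the median SD within a group was 0.0802 (humanFGF2), 0.109 (F2V2), 0.0976 (wtFGF2) and 0.0907 (Control). No array stood apart (lowest correlation within a group 0.996). Clusters were named by the platform annotation (15653) or by a supplementary annotation of the study (724, Elovl7 and Sptlc2 among them). The 20308 others were not tested, and listed genes without a named cluster, such as Mbp, are not analysed here. Fold changes and p-values in the study's supplement were not used.

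All arrays were fitted together in limma 3.58.1 (R 4.3.3) with 4 group means, after the fit had been tested on simulated data. Benjamini-Hochberg adjustment ran over 16377 clusters in each of 6 comparisons. The members and lists were chosen with earlier results of these data known. Named besides the enzymes are, per pathway list, up to 4 genes with the lowest adjusted p for humanFGF2 against Control and up to 2 for humanFGF2 against F2V2, set markers, Papss2, Scd2 and the 3 genes most correlated with each enzyme. Some genes that this rule names are not reported here. Sptssb, Zfp191, Slc25a12, Olig1, Gldn, Gpr17, Ptprz1 and Prx were named after their values were seen. Alternatives were other fold thresholds, cluster sets, scalings and priors, plain ANOVA contrasts, fewer groups, a replicate block and each array left out.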

Additional observations from a re-analysis of the deposited data

Results flagged for a closer look

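In 1 of 40 groups of 4 arrays (10 enzymes in 4 groups) an array lay far from the other 3. Elovl7 was at 8.25 on wtFGF2 replicate 4, while the other 3 wtFGF2 arrays lay between 8.52 and 8.55, so that this gap made up 0.908 of the group's range, above Dixon's critical value for 4 samples. Chance flags about 1 in 20 such groups. Elovl7 was not called in any comparison.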

How the results depend on the processing

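With the main settings 5, 2 and 4 enzymes were called under humanFGF2, F2V2 and wtFGF2 against Control, 3 for humanFGF2 against F2V2, 0 for wtFGF2 against F2V2 and 1 for wtFGF2 against humanFGF2. At 2-fold these became 2, 0, 0, 0, 0 and 0. With no fold threshold F2V2 had 6, wtFGF2 against F2V2 1 and wtFGF2 against humanFGF2 3. Leaving out each array gave 5 to 5, 2 to 2, 4 to 5, 3 to 3, 0 to 0 and 1 to 1. Of 663 alternative values for 24 differences of single enzymes, 634 kept direction and call, 15 lost the call, 14 gained it and 0 changed sign. Apart from the fold thresholds, the calls that moved were those of Ugt8 (-0.58 to -0.47) and Elovl1 (0.44 to 0.53) under wtFGF2, both near 1.4-fold. Each enzyme has 1 cluster, so a mean over clusters gives no other value.

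Deviations of same-numbered arrays of 2 groups correlated at -0.17 to 0.22, over 0.1 in 2 of 24 pairs. Such correlations cannot show whether same-numbered arrays shared a culture or a batch. With the replicate number as a block the counts were 5, 2, 4, 3, 0 and 1, and no enzyme's call changed. Whether Gal3st1 changed is limited by its dim signal.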
